A study of Mus musculus with 18 samples.

Results

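The genes described here are the integrin subunits and the laminin chains. Integrins are adhesion receptors made of 1 alpha and 1 beta subunit, and laminins are basement membrane proteins made of 1 alpha, 1 beta and 1 gamma chain. They were chosen by gene symbol alone, as the numbered or lettered Itga genes, Itgb1 to Itgb8 and the Lama, Lamb and Lamc genes with the numbers 1 to 5. This gave 37 of the 41079 genes of the table, namely 18 alpha subunits, 8 beta subunits and 11 laminin chains. Of the 26 integrin genes, 7 were set apart as leukocyte integrins (Itgal, Itgam, Itgax, Itgad, Itgae, Itgb2 and Itgb7) and 19 were taken as adhesion integrins. Itga4 and Itga9, a role of their own, were counted among these adhesion integrins, and counts for the 2 classes depend on this choice.

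The data are messenger RNA levels in 18 melanomas, 3 tumors in each of 6 groups. B16F10 cells, a mouse melanoma line, were grown under the flank skin of C57BL/6 females. From day 6, when tumors had reached about 50 mm3, mice were injected into the tumor every 2 days, and tumors were taken 48 h after the last injection. The animals' age was not given in the sources used here. Of the groups, 3 received no framework: PBS, PS473@CPs and Free PS473. The others received NKMOF-101-[Mn], either alone, loaded with the ribozyme as PS473@NKMOF-101-[Mn], or loaded with the mutant as M5@NKMOF-101-[Mn]. PS473 is a ribozyme directed at the messenger RNA of PD-L1, M5 is its catalytically inactive mutant, CPs are cationic polymers and NKMOF-101-[Mn] is a manganese metal-organic framework used as a carrier. The titles of the last group read PS473@NKMOF-102-[Mn], whereas the treatment text and the study name NKMOF-101 only, and the latter name is used here. All groups share the same cell line and site, and no sample held sorted cells, so tumor, immune, vascular and skin cells could all contribute RNA.

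Integrins on most cells bind matrix proteins: the laminin-binding ones hold epithelial cells to the basement membrane, the collagen-binding ones act in connective tissue, and those with an RGD-binding pocket take up fibronectin and vitronectin. Leukocyte integrins pair mostly with Itgb2 and let white cells stop on and cross vessel walls. Among laminins, the heterotrimers with Lama4 or Lama5 lie in vessel basement membranes, while Lama3 and Lamb3 belong to laminin that anchors skin epithelium to the layer beneath it. In melanoma tissue, transcripts of one family can therefore come from cells of different kinds. In such bulk tissue, fewer cells of a type and less RNA per cell cannot be told apart.

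Promoter sequences of 3 genes with contrasting behaviour are shown: Itgb1, the most abundant and steadiest gene of the family, Itgam, which moved with leukocyte markers, and Lamb3, which ranged from undetected to high among tumors. They are the 250 bases before the RefSeq start site in genome build GRCm38.p6, plus strand, 5′ to 3′, and capitals mark matches on either strand to GAGGAAG, a purine-rich ETS-type motif, or GGGCGG, a GC box. The Itgb1 stretch is chr8:128685404-128685653, that of Itgam is chr7:128062390-128062639, and that of Lamb3, the first of its 2 listed starts, is chr1:193301744-193301993.
Itgb1: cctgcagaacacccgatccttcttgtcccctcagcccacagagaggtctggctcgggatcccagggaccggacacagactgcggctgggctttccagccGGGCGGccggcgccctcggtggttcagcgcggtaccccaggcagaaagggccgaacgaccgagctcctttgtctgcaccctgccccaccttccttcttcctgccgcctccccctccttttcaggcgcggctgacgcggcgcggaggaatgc
Itgam: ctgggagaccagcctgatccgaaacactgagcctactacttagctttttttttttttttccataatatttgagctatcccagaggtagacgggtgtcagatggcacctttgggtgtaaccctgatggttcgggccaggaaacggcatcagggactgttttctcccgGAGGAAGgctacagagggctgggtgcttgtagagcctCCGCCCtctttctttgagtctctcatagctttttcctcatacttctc
Lamb3: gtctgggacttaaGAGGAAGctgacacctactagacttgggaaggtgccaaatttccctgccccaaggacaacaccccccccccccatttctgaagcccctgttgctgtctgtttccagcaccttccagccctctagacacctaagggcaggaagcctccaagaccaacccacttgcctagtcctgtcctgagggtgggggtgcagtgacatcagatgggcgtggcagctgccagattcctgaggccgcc

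RefSeq promoters were listed for 23 of the 37 genes. A gene was counted for a motif if any of its listed starts held it, whereas the background counts single promoters. Genes with more than 1 listed start, such as Lamb3, therefore had more chances of a match. GAGGAAG occurred in the stretches of 7 of these 23 genes, against 10.6% of 32851 promoters of the same length. GGGCGG was present in 8 of the 23, against 32.7% of all promoters. TGANTCA, an AP-1 motif, was found in 1 of the 23, Itgax, against 6.75% of all. The Itgb1 stretch held 21 CpG dinucleotides, Itgam 6 and Lamb3 2, and the median promoter held 6. A match is only a string of letters and was not tied to any level here.

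Depth and replicate spread set the limits. Fragments assigned to genes, recovered from the steps between low FPKM values (fragments per kilobase of gene length, scaled to the fragments of the tumor), numbered 17212000 to 28401000 per tumor. Every tumor kept its melanoma identity: the mean log2(FPKM + 1) of 10 melanocyte-lineage markers was 7.23 to 8.05. A test was run where the mean reached 1 FPKM, which held for 12357 genes, among them 23 of the 37 genes: 4 leukocyte integrins, 11 adhesion integrins and 8 laminin chains. The 14 not tested were Itga2, Itga2b, Itga7, Itga8, Itga10, Itga11, Itgad, Itgae, Itgb6, Itgb7, Itgb8, Lama1, Lama2 and Lamc3. Tumors of a group are separate samples by their titles, and p-values measure the spread between them. FPKM is per length, so levels can be set against each other between genes.

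**Figure D1:**
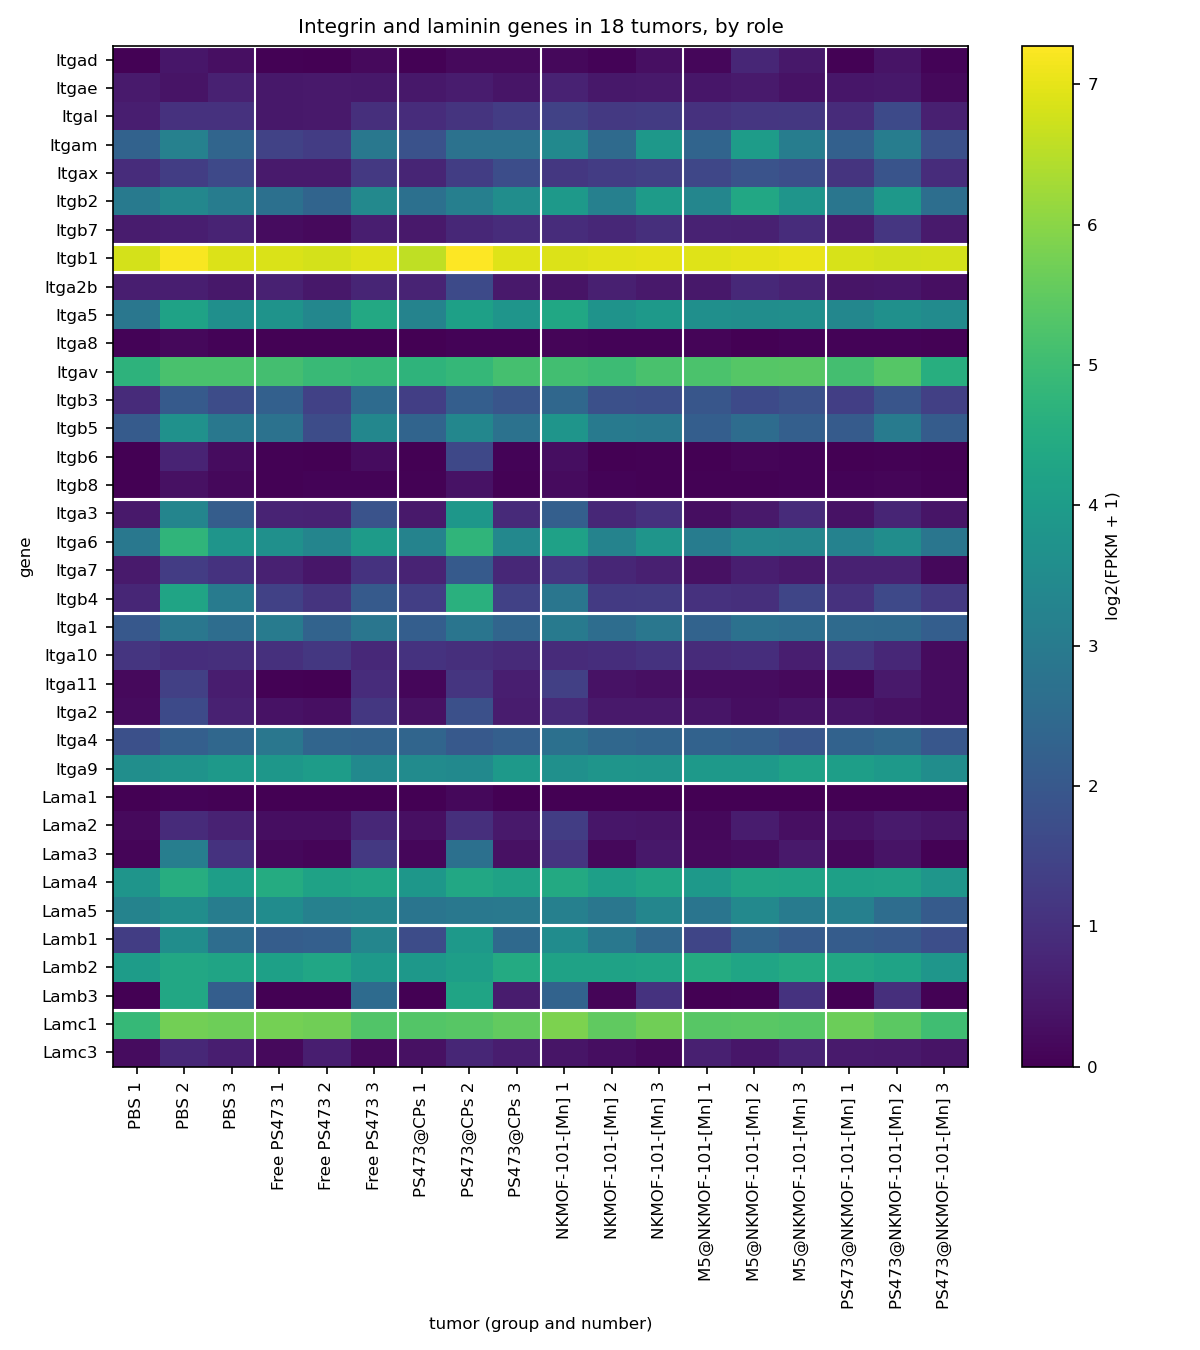
Levels, as log2(FPKM + 1) by colour, in each of the 18 tumors (columns, grouped by treatment), for the genes reported here, ordered by role, with white lines between roles and groups. Itgb1 is the brightest row throughout, and Lamb3 is bright in some tumors of several groups and dark in the others.

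Itgb1, the beta subunit shared by the largest set of integrins, was the most abundant, at 120.2 ± 13.5 FPKM (mean ± SD, n = 18), from 95.7 to 154. It made up 75.3% to 92.2% of the summed FPKM of the 8 beta subunits. Of the alpha subunits, Itgav, which binds RGD-containing proteins, led with 32.6 ± 5.39 FPKM and a median of 37.2% of the alpha total. Itga9 stood at 13.0 ± 2.03 FPKM, Itga5, the fibronectin receptor subunit, at 12.5 ± 3.66, and Itga6, a laminin-binding subunit, at 11.9 ± 5.91 (all SD, n = 18). At the low end, Itga8 lay at 0.011 to 0.109 FPKM and Itgb6, an epithelial subunit, was listed at 0 in 3 tumors. Itgb8 ranged from 0.0117 to 0.277 FPKM. In the order of alpha subunits Itga9, Itga5 and Itga6 had neighbouring means that lay within 1 SD of each other.

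Leukocyte integrins were led by Itgb2, the common beta chain of white cells, at 9.46 ± 4.14 FPKM, and Itgam, the alpha chain of myeloid cells, at 6.05 ± 3.87 (SD, n = 18). In PBS tumors, Itgb2 was 6.77, 9.27 and 7.36 FPKM, in Free PS473 tumors 5.46, 4.10 and 9.66, and in PS473@CPs tumors 5.48, 7.89 and 10.9. With PS473@NKMOF-101-[Mn] it was 6.18, 13.7 and 5.14 FPKM, with the carrier NKMOF-101-[Mn] 13.9, 7.96 and 14.8, and under M5@NKMOF-101-[Mn] 9.17, 19.7 and 12.9. The framework groups held the highest tumors, but each of them reached into the range of the others.
Itgam was 3.91, 8.22 and 4.19 FPKM in PBS, 1.70, 1.45 and 6.60 in Free PS473, and 2.59, 5.65 and 5.71 in PS473@CPs. With PS473@NKMOF-101-[Mn] it was 3.67, 7.50 and 2.42, with the carrier NKMOF-101-[Mn] 10.1, 4.70 and 13.6, and under M5@NKMOF-101-[Mn] 4.04, 15.4 and 7.53. The 2 lowest tumors were Free PS473 and the highest was M5@NKMOF-101-[Mn], and again groups overlapped. Itgal, the alpha chain of lymphocytes and other leukocytes, ranged from 0.390 to 2.08 FPKM, and Itgax, a chain of dendritic and myeloid cells, from 0.439 to 2.72. Itgae and Itgb7, which pair on lymphocytes of epithelia, had means of 0.393 and 0.636 FPKM, and Itgad 0.172.

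**Figure D2:**
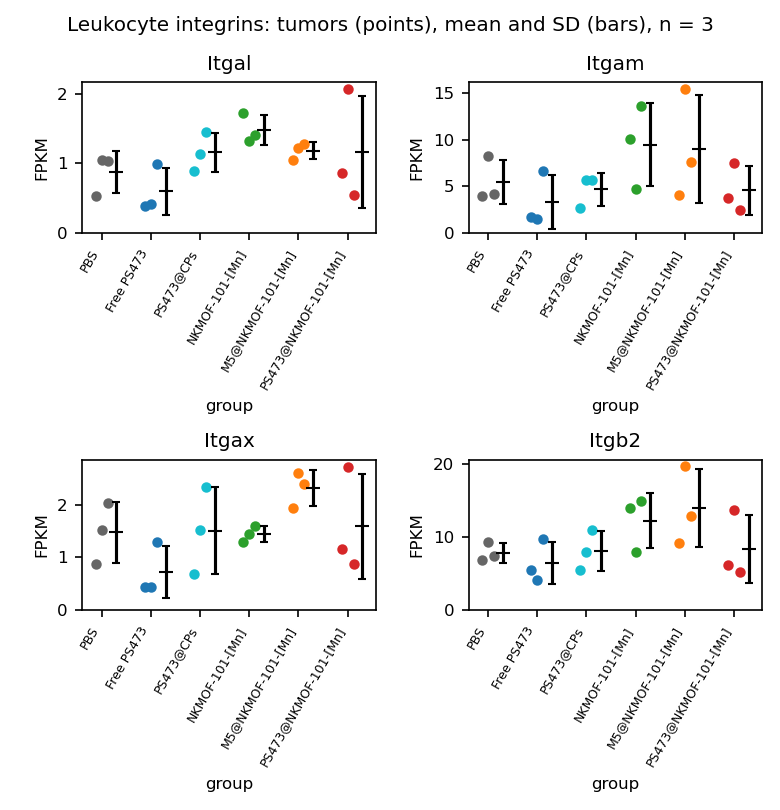
FPKM (vertical axis, from 0) of Itgal, Itgam, Itgax and Itgb2 in the 6 groups, with points for the 3 tumors and bars for mean ± SD. The highest Itgb2 values, 19.7 and 14.8 FPKM, belong to M5@NKMOF-101-[Mn] and then NKMOF-101-[Mn] tumors, and every group overlaps with another.

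Across tumors the leukocyte integrins moved together. Over 18 tumors, Itgam and Itgb2 had r = 0.949 and rho = 0.959, Itgal and Itgb2 r = 0.806 and rho = 0.851, and Itgax and Itgb2 r = 0.808 and rho = 0.775, on the log2(FPKM + 1) scale (permutation adjusted p of r 8.5e-05, 0.0002975 and 0.0002975, of rho 0.00017, 0.000255 and 0.000765). Leaving out the 2 tumors farthest from the median gave r = 0.918, 0.793 and 0.736. The 21 partner pairs of this family were chosen after their values were seen, and p-values are adjusted over the 17 of them that could be tested.

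Their levels also followed the leukocyte score, the mean log2(FPKM + 1) of 10 white cell markers, which had a lowest value of 1.89 and a highest of 3.99. With this score, r was 0.909 for Itgam, 0.897 for Itgb2, 0.852 for Itgal and 0.773 for Itgax (rho 0.909, 0.926, 0.854 and 0.684), with adjusted permutation p of 0.000228, 0.000228, 0.000312 and 0.00148 (of rho 0.000592, 0.000592, 0.00074 and 0.0119; n = 18). Without the 2 tumors farthest from the median score r was 0.867, 0.887, 0.759 and 0.597, and the adjusted p of Itgax was then 0.0623. After group means were subtracted r was 0.883, 0.890, 0.772 and 0.774. All 10 markers were above 0 in every tumor. The group with the lowest leukocyte score was Free PS473, at 1.89 to 3.65, and the highest was NKMOF-101-[Mn], at 3.38 to 3.99. The part that cell content has in these relations was not tested.

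Among adhesion integrins, Itga3 and Itgb4, both laminin-binding and both typical of epithelia, varied far more than Itgb1 or Itgav. Itgb4 was 0.706, 18.2 and 7.15 FPKM in PBS tumors, 1.67, 1.14 and 3.18 in Free PS473 tumors and 1.57, 23.6 and 1.63 in PS473@CPs tumors. With PS473@NKMOF-101-[Mn] it was 1.04, 2.03 and 1.33 FPKM, with the carrier NKMOF-101-[Mn] 6.31, 1.35 and 1.39, and under M5@NKMOF-101-[Mn] 1.07, 0.983 and 1.86. A few tumors of PBS, PS473@CPs and the carrier group stood high, and all other tumors lay at or below 3.18 FPKM. Itga3 spanned 0.216 to 13.5 FPKM with its highest value in the same PS473@CPs tumor. Itga6, the partner of Itgb4 in hemidesmosomes, ranged from 6.22 to 26.3 FPKM and had r = 0.914 and rho = 0.829 with Itgb4 (adjusted permutation p 8.5e-05 for r and 0.0002833 for rho, n = 18). Without the 2 tumors farthest from the median r was 0.766.

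Of the other adhesion integrins, Itgb5, a vitronectin receptor chain, ranged from 2.22 to 12.9 FPKM, and Itgb3 from 0.876 to 4.80. Itga1, a collagen receptor, ranged from 3.04 to 7.15 FPKM, and Itga4, which binds vascular VCAM-1 and fibronectin, from 2.44 to 6.38. Itgav had r = 0.316 and rho = 0.218 with Itgb3 and r = 0.172 and rho = 0.146 with Itgb5 (adjusted permutation p of r 0.265 and 0.524, of rho 0.434 and 0.600, n = 18), which did not pass the threshold. Without the 2 tumors farthest from the median these r were -0.038 and -0.088.

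Of the laminin chains, Lamc1, the gamma chain of the widespread laminins, was highest at 44.4 ± 7.65 FPKM (SD, n = 18). Lama4 made up a median 66.3% of the alpha chain total and Lama5 29.9%, and Lamb2 made up a median 81.4% of the beta chain total. The Lamb2 share ran from 33.3% in the second PS473@CPs tumor to 92.0% in the first M5@NKMOF-101-[Mn] tumor. Lamb3 reached 39.2% of the beta chain total in the second PBS tumor. Lama1 was listed at 0 in 7 tumors and had a highest value of 0.111 FPKM.

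Lamb3, the beta chain of the epithelial anchoring laminin, was 0.0115, 19.6 and 3.47 FPKM in PBS tumors, 0, 0 and 4.82 in Free PS473 tumors and 0.0143, 17.9 and 0.472 in PS473@CPs tumors. With PS473@NKMOF-101-[Mn] it was 0.00488, 0.975 and 0.0283 FPKM, with the carrier NKMOF-101-[Mn] 4.03, 0.0675 and 1.09, and under M5@NKMOF-101-[Mn] 0.00671, 0.0287 and 1.09. High and low tumors lay side by side inside most groups. Lama3, an alpha chain of the same laminin, ran from 0.0348 to 7.64 FPKM, with its highest value in the same PBS tumor as Lamb3.

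These chains stood apart with skin markers. The skin epithelium score, the mean log2(FPKM + 1) of 11 keratinocyte markers found in the table, ran from 0.145 to 6.65, and 9 of the 11 were at 0 in at least 1 tumor. In the 9 tumors with the lowest scores (0.145 to 0.922), Lamb3 lay at 0 to 0.0675 FPKM, and in the 9 with the highest (1.94 to 6.65) at 0.472 to 19.6. The same split gave 0.0348 to 0.174 against 0.253 to 7.64 for Lama3. These ranges did not overlap, and they are a description because the tumors were ordered by the score. Over all 18 tumors, r with the skin score was 0.900 for Itgb4, 0.891 for Itga3 and 0.836 for Itga6 (rho 0.783, 0.736 and 0.662), with adjusted permutation p of 0.000228, 0.000228 and 0.000312 (of rho 0.003256, 0.00544 and 0.01684). Without the 2 tumors farthest from the median score these r were 0.868, 0.836 and 0.695.

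Lama3 and Lamb3 each fell into separate clusters of tumors, with 2 tumors far above the rest, so their relations were taken within the other 16. There, r was 0.852 for Lama3 and 0.899 for Lamb3 (rho 0.812 and 0.843, adjusted permutation p of r 0.00111 and 0.000404, of rho 0.003806 and 0.001727). With quantile normalization of the tumors the r of Lama3 was 0.444 and no longer passed, with an adjusted permutation p of 0.171. The skin score itself ran alongside the fibroblast score (r = 0.881, rho = 0.851) and the neutrophil score (r = 0.870, rho = 0.785; adjusted permutation p of r 0.00033 and 0.00033, of rho 0.00066 and 0.001467, n = 18). Without the 2 tumors farthest from the median these 2 r were 0.799 and 0.765. In the neutrophil score 2 of 7 markers, S100a8 and S100a9, reached a mean of 1 FPKM, and Ly6g was at 0 in all 18 tumors. S100a8 was highest in the second PBS tumor (252 FPKM) and the second PS473@CPs tumor (178 FPKM). These 2 tumors also had the highest skin scores, so the 2 scores are hard to tell apart here. The same genes had relations of like size with the neutrophil score. These r were 0.909 for Lama3 and 0.898 for Lamb3 in the 16 tumors, and 0.917 for Itga3, 0.841 for Itga6 and 0.879 for Itgb4 in all 18 (rho 0.824, 0.851, 0.769, 0.670 and 0.596; adjusted permutation p of r 0.000955, 0.000888, 0.000228, 0.000404 and 0.000592, of rho 0.00296, 0.001615, 0.004247, 0.0142 and 0.03597). Without the 2 tumors farthest from the median score they were 0.786, 0.794, 0.841, 0.650 and 0.741. With the fibroblast and pericyte score r ran from 0.807 for Lama3 to 0.875 for Itga3, and all 5 genes passed by the adjusted permutation p. The differences between the r of these lists were not tested.

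**Figure D3:**
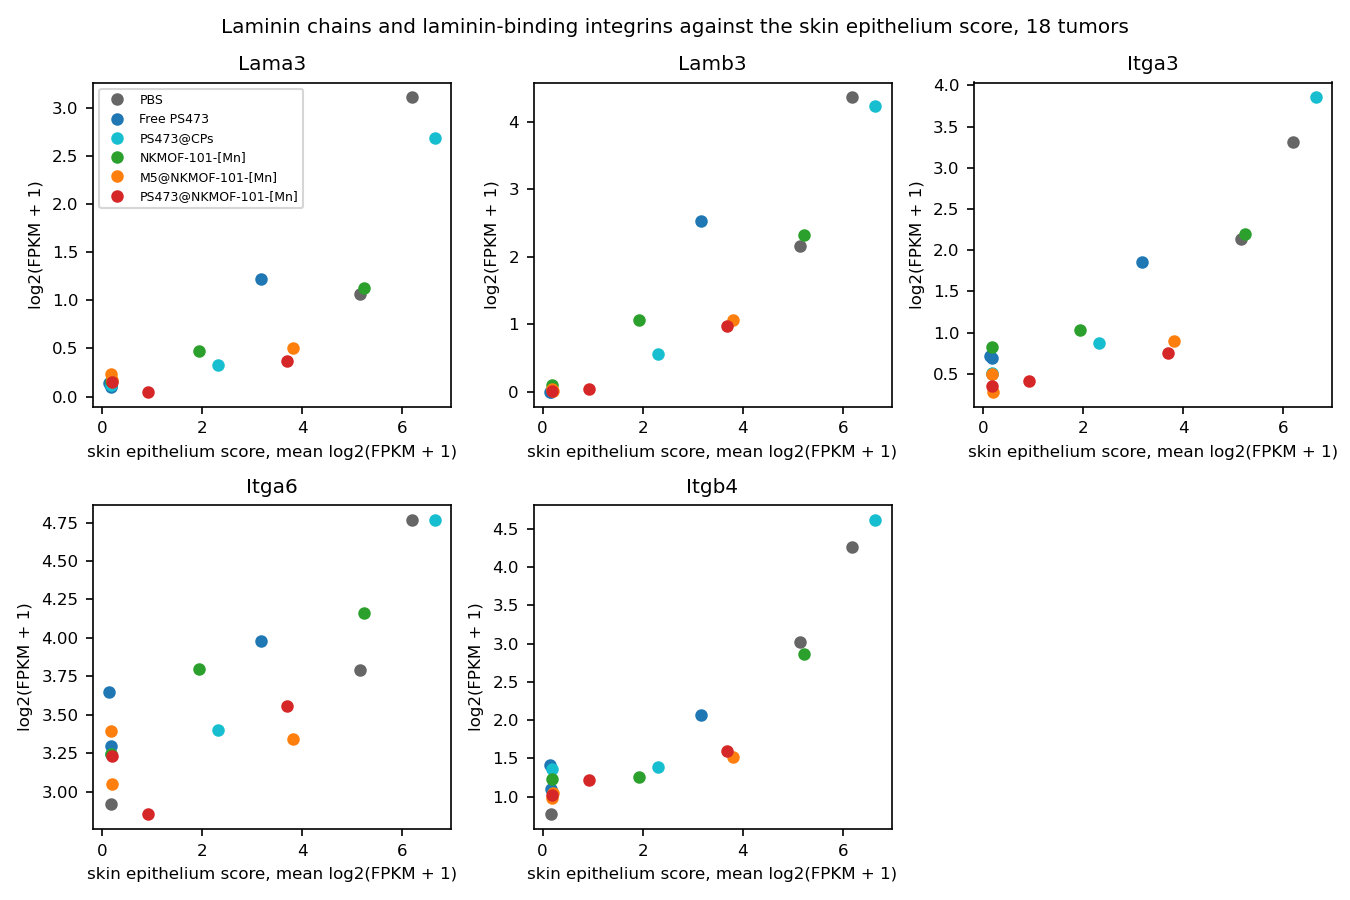
Level of Lama3, Lamb3, Itga3, Itga6 and Itgb4 (vertical axes, log2(FPKM + 1)) against the skin epithelium score (horizontal axes, mean log2(FPKM + 1) of 11 markers) in 18 tumors coloured by group. The tumors with scores near 6.2 and 6.6, from PBS and PS473@CPs, hold the highest values in every panel, and Lama3 and Lamb3 are near 0 in tumors with scores under 1.

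Relations were computed for all 23 tested genes with 13 marker lists, 296 in all, and 108 passed an adjusted permutation p under 0.05 for r, 96 positive and 12 negative. Lamb1, a laminin beta chain, had the strongest of them, with the endothelium score (r = 0.958, rho = 0.934, adjusted p 0.000228 and 0.000592, 0.930 without the 2 farthest tumors). Itgb5 led for the fibroblast and pericyte score (r = 0.916, rho = 0.891, adjusted p 0.000228 and 0.000592, 0.908 without the 2 farthest). Against the T and NK cell score it was Itgal (r = 0.873, rho = 0.851, adjusted p 0.000228 and 0.00074, 0.787 without the 2 farthest). With the melanocyte-lineage score, Itga6 was negative (r = -0.737, rho = -0.649, adjusted p 0.002255 and 0.01817, -0.685 without the 2 farthest) and Itga9 positive (r = 0.666, rho = 0.662, adjusted p 0.0122 and 0.0179, 0.492 without the 2 farthest, where its adjusted p was 0.143). Itgb5 led for the macrophage score (r = 0.843, rho = 0.829, adjusted p 0.000312 and 0.00148, 0.744 without the 2 farthest) and the dendritic cell score (r = 0.644, rho = 0.626, adjusted p 0.01451 and 0.02609, 0.602 without the 2 farthest, where its adjusted p was 0.0539). Of the 23 genes, 10 passed for the neutrophil score and 13 for the platelet score, as judged by the adjusted permutation p of r. In the platelet score 1 of 7 markers, Pf4, reached a mean of 1 FPKM, and in the T and NK cell score 4 of 10 did. Whether platelets had a part in these relations was not tested. Itga5 led for the Schwann cell score (r = 0.697, rho = 0.744, adjusted p 0.006578 and 0.00544, 0.652 without the 2 farthest). None of the markers of dendritic cells, Schwann cells or adipocytes reached a mean of 1 FPKM. No gene passed for the skeletal muscle score (0 of 23 relations by permutation) or the adipocyte score (0 of 20). Several scores also moved with each other. With the fibroblast and pericyte score, r was 0.835 for endothelium, 0.818 for macrophages and 0.728 for dendritic cells. Without the 2 farthest tumors these were 0.707, 0.737 and 0.632. Endothelium and melanocyte lineage had r = -0.695 (-0.608 without the 2 farthest). A gene that led for 1 of these lists therefore cannot be assigned to that cell type.

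Treatment groups were then compared for the 23 tested genes with limma, on log2(FPKM + 1), with Benjamini-Hochberg adjustment over all 12357 genes. A call needed an adjusted p under 0.05 and a log2 fold change beyond 1 in either direction. In each of the 10 comparisons 0 of the 23 genes were called, and the background was 0 of 12357 genes, or 0%, in each. The moderated F test over the 6 groups, with no fold threshold, also called 0 genes, 0% of all. At an unadjusted p under 0.05, 1 of the 23, Lama5, passed the F test (limma adjusted p = 0.999879), against 1.99% of all genes. In 6 of the comparisons 0 of the 23 passed an unadjusted p under 0.05 in either direction, with backgrounds of 2.29% of all genes for PS473@NKMOF-101-[Mn] against PS473@CPs and 0.591% against M5@NKMOF-101-[Mn]. The backgrounds against PBS were 1.51% for M5@NKMOF-101-[Mn], 1.46% for its empty carrier NKMOF-101-[Mn], 2.09% for PS473@CPs and 1.81% for Free PS473.

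The question put to PS473@NKMOF-101-[Mn] was whether it differs from its controls. Lama5, a laminin chain of vessel and epithelial basement membranes, was 7.96, 5.12 and 3.27 FPKM in that group. It was 8.61, 10.9 and 7.54 in PBS tumors, 10.7, 8.23 and 8.80 in Free PS473 tumors and 6.06, 6.47 and 6.69 in PS473@CPs tumors. The carrier NKMOF-101-[Mn] gave 8.08, 6.45 and 9.09 FPKM, and loading it with the mutant, M5@NKMOF-101-[Mn], 6.14, 9.69 and 7.16. The PS473@NKMOF-101-[Mn] tumors did not overlap with Free PS473 and overlapped with the other groups. The log2 differences of Lama5 from the limma fit were -0.69 (SE 0.22) against PBS, -0.72 (SE 0.22) against Free PS473 and -0.51 (SE 0.22) against NKMOF-101-[Mn], with adjusted p of 0.993, 0.781 and 0.999. Without the third PS473@NKMOF-101-[Mn] tumor the difference from PBS was -0.42, from Free PS473 -0.46 and from NKMOF-101-[Mn] -0.25. With the skin score as a covariate the difference from PBS was -0.67.
At an unadjusted p under 0.05, Lama5 was the 1 gene of 23 lower against each of these, with backgrounds of 1.1%, 2.86% and 1.8% of all genes.

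**Figure D4:**
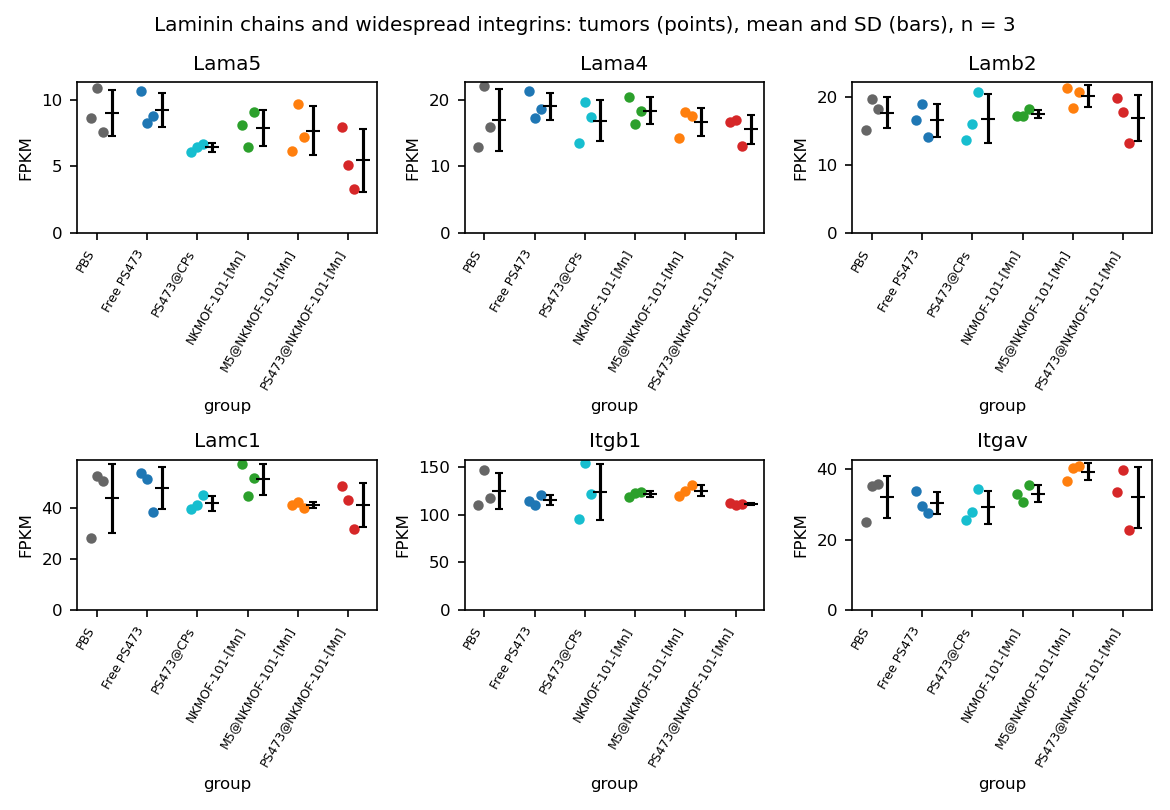
FPKM (vertical axes, from 0) of Lama5, Lama4, Lamb2, Lamc1, Itgb1 and Itgav by group, with points for the 3 tumors and bars for mean ± SD. Lama5 in PS473@NKMOF-101-[Mn] spans 3.27 to 7.96 FPKM, below all 3 Free PS473 tumors, while Itgb1 lies near 110 to 112 FPKM there.

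Other genes of the family had larger p-values in the same comparisons. Against PBS, Itga3 had a log2 difference of -1.48 (SE 0.78) and Lama3 -1.24 (SE 0.69), and Lamb3, at -1.84 (SE 1.14), had a wider error; all had an adjusted p of 0.993 by limma. Without the second PBS tumor these were -0.81 for Itga3, -0.40 for Lama3 and -0.75 for Lamb3. The skin score spanned 0.179 to 6.19 in PBS tumors and 0.189 to 3.70 in PS473@NKMOF-101-[Mn] tumors, and with this score as a covariate the differences were -0.65, -0.56 and -0.58 (limma adjusted p = 0.999 for each). Lamb3 was chosen here after its values were seen. Against Free PS473, Itgax was 0.55 (SE 0.28) and Itgal 0.40 (SE 0.22), with adjusted p of 0.960, and without the second PS473@NKMOF-101-[Mn] tumor they were 0.26 and 0.11. Against PS473@CPs, Itga3 was -1.24 (SE 0.78), Itga9 0.23 (SE 0.16) and Itgb4 -1.18 (SE 0.85), with adjusted p of 0.996. Without the second PS473@CPs tumor Itga3 was -0.19 and Itgb4 -0.10, and with the skin score as a covariate -0.70 and -0.59, while Itga9 was 0.12 without the first PS473@NKMOF-101-[Mn] tumor. Against NKMOF-101-[Mn], Itgb5 was -0.82 (SE 0.45) and Itga1 -0.42 (SE 0.24), and Itgb5 was -0.54 without the first carrier tumor. Against M5@NKMOF-101-[Mn], Lama5 was -0.47 (SE 0.22), Itgb2 -0.72 (SE 0.37) and Itgav -0.32 (SE 0.18). Without the third PS473@NKMOF-101-[Mn] tumor Lama5 was -0.21, Itgav -0.10 and Itgb2 -0.48, and Itgb2 was -0.46 without the second M5@NKMOF-101-[Mn] tumor. None of these passed.
In the comparison with NKMOF-101-[Mn], the 3 tumors of each group did not overlap for 5 of the 23 genes, all lower (Itga1, Itga3, Itga5, Itgb1 and Lamb1), against 5.5% of all genes. There, 7623 of all 12357 genes had negative differences. So did 9 of 9 tested markers each of endothelium, fibroblasts and pericytes, and macrophages (medians -0.86, -0.96 and -0.98) and 10 of 10 leukocyte markers (-0.58). All 10 melanocyte-lineage markers were higher (0.20). The part of cell content in this count was not tested.
In the comparison with Free PS473, 3 of the 23 genes were lower without overlap (Lama4, Lama5 and Lamb1), against 4.48% of all genes. Single genes did not overlap in 4 others: Itgb1 was lower against M5@NKMOF-101-[Mn] (2.16% of all genes), and, against PBS, Lama5 was lower in PS473@CPs (3.17%), Itgal higher in NKMOF-101-[Mn] (4.52%) and Itgav higher in M5@NKMOF-101-[Mn] (4.75%).

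**Figure D5:**
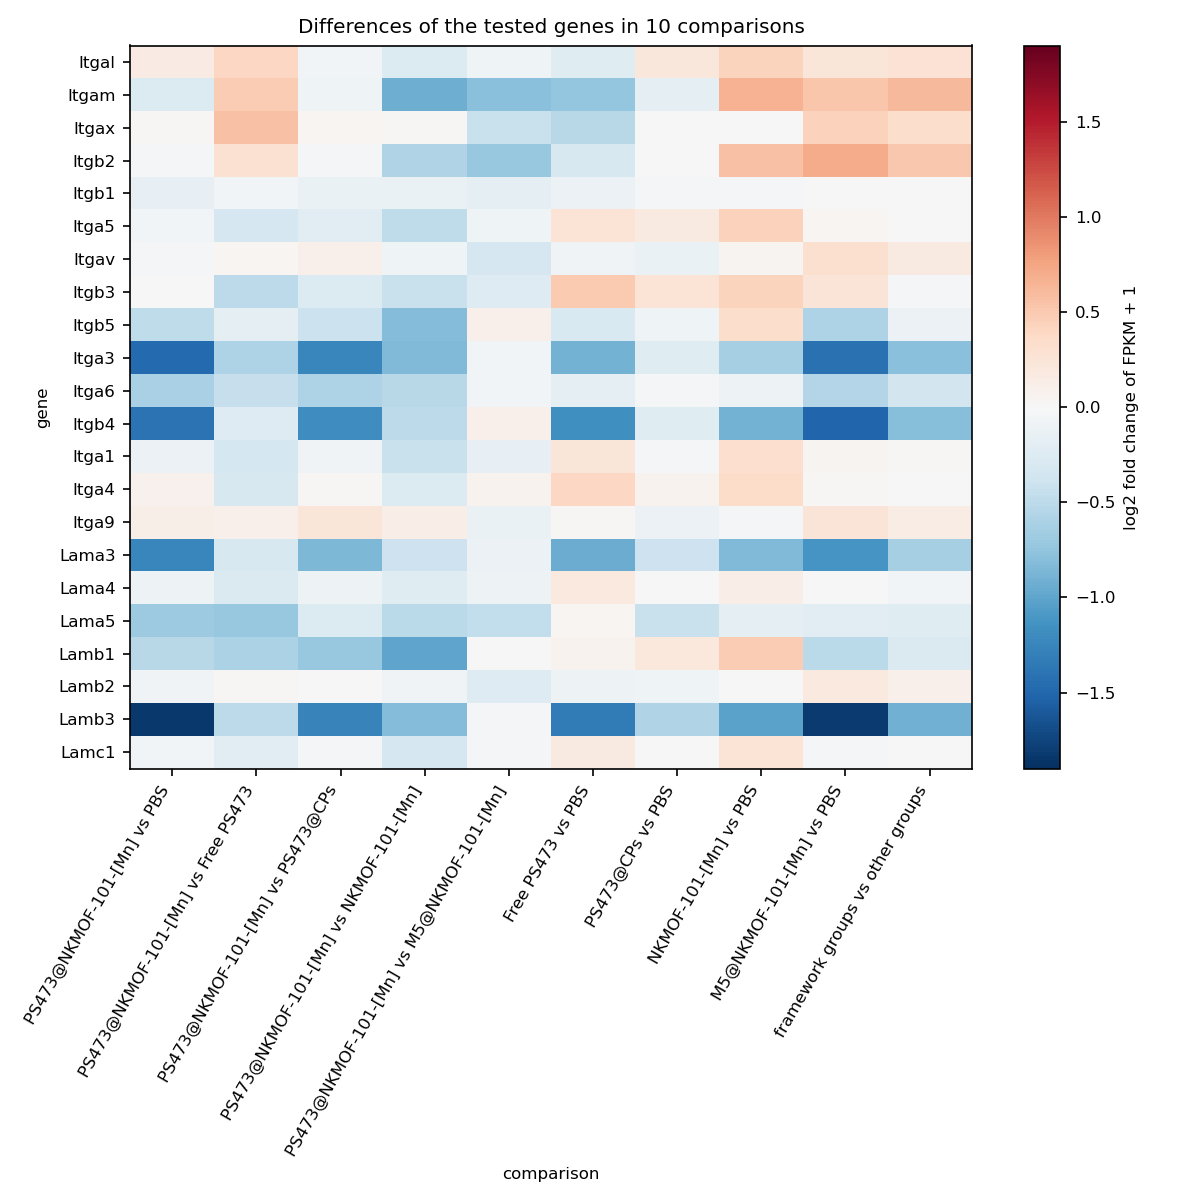
Log2 fold change of FPKM + 1 (colour, red higher and blue lower in the first-named group) for the tested genes reported here, ordered by role, in the 10 comparisons. No cell passed an adjusted p under 0.05, and the deepest blue cells belong to Lamb3, Itgb4 and Itga3, whose tumors varied widely within groups.

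The groups that received the framework were compared with PBS, Free PS473 and PS473@CPs. All 4 tested leukocyte integrins had positive differences, with a median of 0.43 against -0.01 over all genes tested. Itgb2 differed by 0.52 (SE 0.21) and Itgal by 0.28 (SE 0.13), Itgax by 0.34 (SE 0.16) and Itgam by 0.62 (SE 0.30), all with an adjusted p of 0.900 by limma. Itgal was 0.18 without the second PS473@NKMOF-101-[Mn] tumor. Taken one group at a time against PBS, the 4 genes were all higher in NKMOF-101-[Mn], with a median of 0.49, and in M5@NKMOF-101-[Mn], with a median of 0.48, whereas in PS473@NKMOF-101-[Mn] 2 were higher and 2 lower, with a median of 0.005. PS473@NKMOF-101-[Mn] had all 4 lower in the direct comparison with M5@NKMOF-101-[Mn], with a median of -0.57, and 3 of 4 lower in that with the carrier alone, with a median of -0.41. At an unadjusted p under 0.05, 2 of the 23 genes were higher, against 2.93% of all genes. The leukocyte score, given above, was also highest in NKMOF-101-[Mn] tumors, and its part was not tested. The adhesion integrins had 4 of 11 higher with a median of -0.01, and the laminin chains 2 of 8 higher with a median of -0.25. Itga4, counted here with the adhesion integrins, differed by 0.0004 (SE 0.11).

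Among the treatments compared with PBS alone, Itga4 differed by 0.39 (SE 0.19), Itgax by -0.53 (SE 0.28) and Itgb3 by 0.50 (SE 0.33) in Free PS473. Without the first PBS tumor Itga4 was 0.21 and Itgb3 0.18 there. For PS473@CPs the smallest p-values were those of Lama5 at -0.42 (SE 0.22), Itgal at 0.21 (SE 0.22) and Itgb3 at 0.26 (SE 0.33), and without the first PBS tumor Itgal was 0.07 and Itgb3 -0.067. For NKMOF-101-[Mn] they were those of Itgal at 0.42 (SE 0.22), Itga4 at 0.35 (SE 0.19) and Itgb2 at 0.55 (SE 0.37), and without the first PBS tumor Itgal was 0.28 and Itga4 0.17. For M5@NKMOF-101-[Mn] they were those of Itgb2 at 0.71 (SE 0.37), Itga3 at -1.42 (SE 0.78) and Itgb4 at -1.50 (SE 0.85). Without the second PBS tumor Itga3 was -0.75 and Itgb4 -0.71, with the skin score as a covariate both were -0.51, and Itgb2 was 0.44 without the second M5@NKMOF-101-[Mn] tumor. In the full fit all had limma adjusted p of 0.999 or more. All of these comparisons share the PBS tumors.

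The spread within groups was wider for this family than for most genes. The median pooled SD within groups was 0.41 on the log2 scale for the 23 genes and 0.183 for all 12357. In the same order, the share of variation lying between groups had a median of 26.2% and 23.3%. With small groups, part of the variation lies between them by chance alone, and that part was not subtracted. These shares therefore do not measure an effect of treatment, and the difference between them was not tested. The SDs of Lamb3, Itgb4, Itga3 and Lama3 lay at or above the 97.6 percentile of all genes tested.

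Genes that work with these receptors and chains were counted in the same fit. Of 21 tested integrin adaptors and kinases, 18 were higher in the framework groups with a median of 0.07, where 5888 of all 12357 genes were higher, and Apbb1ip, which links Rap1 to talin, was the 1 with an unadjusted p under 0.05 (limma adjusted p = 0.900). In the same comparison 10 of 10 leukocyte markers were higher, with a median of 0.48, and 10 of 10 melanocyte-lineage markers, with a median of 0.21, and their part in this count was not tested. Of 11 basement membrane partners of laminins, 11 were lower with PS473@NKMOF-101-[Mn] compared with Free PS473, with a median of -0.38 against -0.04 over all genes, of which 7595 were lower, and Hspg2, perlecan, was the 1 with an unadjusted p under 0.05 (limma adjusted p = 0.960). Endothelial markers were lower there too, 9 of 9 with a median of -0.59, and their part in this count was not tested. The shift was not particular to Free PS473. Of the 11 partners, 10 were lower against NKMOF-101-[Mn] (median -0.73), 9 against PS473@CPs (-0.61) and 8 against PBS (-0.43). Against M5@NKMOF-101-[Mn], 6 were lower and 5 higher (-0.02). The 6 tested ligands of leukocyte integrins and the 9 tested matrix ligands of adhesion integrins had no gene with an unadjusted p under 0.05 in any of the 10 comparisons. The smallest F test p-values in these lists belonged to Icam1 and Spp1 (limma adjusted p = 0.999879 for both).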

How the data were processed

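Transcript levels were measured by poly(A) RNA sequencing in 18 B16F10 tumors, 3 in each of 6 groups, grouped from the sample titles. The authors deposited an FPKM value per tumor for 41079 genes, scaled by gene length and by each tumor's assigned fragments; per the labels the build is GRCm39, and the aligner and counting tool are not given in the sources used here. Between 47.3% and 51.4% of low values were whole fragments (within 0.01), so no count model was used. Every column of tumor values was used, and no 2 tumors held identical values (0 of 153 pairs).

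Values were used as log2(FPKM + 1). A mean of 1 FPKM or more left 12357 genes, to which limma 3.58.1 in R 4.3.3 was applied (6 group means in 1 fit, trend in the prior variance, no replicate block). Benjamini-Hochberg adjustment ran over all of these genes. Tested on simulated data with 200 changed genes (PS473@NKMOF-101-[Mn] against PS473@CPs), the fit recovered 87.5%, 95.5% and 98% of changes of 1.5, 2 and 3 on the log2 scale. The changed genes were drawn from all 12357 genes, each with its own SD. This family had a wider median SD within groups, 0.41 against 0.183, so these rates do not apply to it. Relations across tumors used Pearson's r and Spearman's rho with 100000 permutations; where a wide gap split the tumors into clusters, relations were taken within clusters of at least 6. Python 3.11.15, numpy 2.4.6, scipy 1.17.1, pandas 2.3.3 and matplotlib 3.10.9 were used.

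The genes, roles, partner and marker lists were chosen with earlier results of these data known. Genes named are all members by role, the 3 with the smallest p per comparison, those past a threshold, and per marker list the gene with the largest correlation; for partner genes, those past a threshold and the smallest F test p per list. Promoters came from RefSeq (GRCm38.p6), used apart from the expression build. Alternatives were another pseudocount, filter, scaling, prior and fit, a replicate block, the skin score as covariate and leaving out each tumor. The values of 1 of the 37 genes are not reported here.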

Additional observations from a re-analysis of the deposited data

How the results depend on the processing

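With 3 tumors a group, genes that vary as much as Lamb3 or Itgb4 did not pass even at large log2 differences. Against PBS, Lamb3 was at -1.84 (SE 1.14) in PS473@NKMOF-101-[Mn] and Itgb4 at -1.50 (SE 0.85) in M5@NKMOF-101-[Mn]. For such genes the lack of a call does not show that they were unchanged. In every comparison and under every alternative fit 0 of the family's genes were called, including the replicate block, which called 0, and leaving out each tumor, which gave 0 to 0; over all genes tested these fits called 0 to 4. With an unadjusted p under 0.05 in place of the adjusted one, the F test over 6 groups called 1. The replicate numbers shared by groups gave no sign of pairing. Same-numbered tumors' deviations from group means had a median correlation of -0.019 over 45 pairs (-0.730 to 0.724). For tumors with different numbers it was -0.005 over 90 pairs (-0.694 to 0.724).

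Of 296 relations with marker scores, 108 passed; without the 2 tumors farthest from the median score 58 did, and with quantile normalization 71 of the 230 that could be computed, since 3 lists hold no tested gene. With quantile normalization Lama3 and the skin score had r = 0.444 (adjusted permutation p = 0.171). The log2 difference of Itgb3 between PS473@CPs and PBS was -0.067 without the first PBS tumor and ranged from there to 0.51 as each tumor was left out, and the cause was not tested. Of the 524 values of named log2 differences under alternatives, 523 kept their sign and all 524 had an adjusted p of 0.05 or more, the smallest 0.470. Their sizes were less stable: 18 lay on the other side of a log2 difference of 1 from the reported value, 40 were smaller and 31 larger by over 1.5 times.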
